A study of Danio rerio with 6 samples.

Results

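A set of 10 genes named for their parts in mitochondrial fusion, fission, turnover and biogenesis was followed in zebrafish larvae: opa1, mfn1b, mfn2, dnm1l, fis1, pink1, prkn, ppargc1a, tfam and polg. They were taken by symbol from a gene table of 37685 symbols, with any row that repeats a symbol plus a numeric suffix added to it, and all 10 members were found, each as 1 row. The treated group held 3 libraries of whole larvae at 72 hours post fertilization that had received, as wild-type AB embryos at the 1-cell stage, a morpholino against GJB2, which encodes a gap junction protein of the inner ear. The control group held 3 libraries of wild-type AB larvae of the same age. A morpholino is a synthetic oligonucleotide that pairs with RNA and blocks its translation or splicing; its effect is transient and reaches all tissues of the embryo. Larvae injected with a control oligonucleotide were not analysed here, so injection and knockdown cannot be told apart. The oligonucleotide is printed because it is the only agent the labels name between the groups. The capitals mark CAT, the complement of a start codon, at bases 18 to 20 from the 5′ end.
GJB2-MO: taaagtgctccccaactCATcctgt

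Mitochondria fuse and divide continuously. Mitofusins join outer membranes and OPA1 joins inner membranes, while DNM1L, recruited to the outer membrane by adaptors, constricts and cuts the organelle. PINK1 and parkin tag damaged mitochondria for removal by autophagy, PGC-1alpha (the product of ppargc1a) switches on nuclear genes for new mitochondria, and TFAM and POLG package, transcribe and copy mitochondrial DNA. These roles are best known from mammalian cells. The title of the series links hereditary deafness to apoptosis through mitochondria, and the members are genes by which mitochondria change in shape, number and turnover.

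Libraries held between 14582030 and 19743658 read counts. Over 22247 genes tested with edgeR's quasi-likelihood test, 1378 genes (6.19%) were called at a Benjamini-Hochberg adjusted p under 0.05, 641 higher (2.88%) and 737 lower (3.31%) in GJB2-MO larvae. The connexin symbol gjb8, a candidate for the target by name, held 114, 14 and 16 counts in the GJB2-MO libraries and 7, 8 and 11 counts in the control libraries, which does not check the labels, since blocked translation can leave the amount of target RNA as it was. Each of the 7 tissue marker lists (muscle, heart, neurons, liver, intestine, blood and skin, 5 genes each) was detected in full. The summed markers of skeletal muscle ranged from 9175 to 9822 TPM in GJB2-MO and from 10190 to 11830 TPM in control libraries, and those of heart from 98.25 to 101.5 TPM in GJB2-MO and from 101.8 to 111.8 TPM in control. Those of skin ranged from 13170 to 15210 TPM in GJB2-MO and from 11660 to 12550 TPM in control. Of the markers, 2 of skin and 1 of blood were called higher, and no marker of the other lists was called. In whole larvae, fewer cells of a type and less RNA per cell cannot be told apart.

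None of the 10 members was called, and the changes measured were small. Log2 fold changes of GJB2-MO over control ran from -0.23 to 0.40 with a median of -0.06, against a median of 0.01 over all genes tested. Of the members, 5 stood above 0 and 5 below. At an unadjusted p under 0.05 there were 5 members (pink1 and prkn higher, opa1, dnm1l and ppargc1a lower), where 21.7% of all genes tested reached that level. No member was called in DESeq2 or in limma on TPM either. Of the 13 alternative runs, 2 called pink1 higher, as given below. The unadjusted 95% intervals of the 10 fold changes reached no lower than -0.48 and no higher than 0.71 on the log2 scale. A 2-fold change in either direction (1 on that scale) lay outside each of them. These intervals rest on the spread of 3 libraries per group, which may be technical, and on RNA of whole larvae. In 6 of the 10 members the 3 GJB2-MO and the 3 control libraries did not overlap in TMM-scaled CPM (counts per 1e+06 counts), compared with 27.8% of all genes tested. Of these 6, mfn2, pink1 and prkn were higher in GJB2-MO larvae and opa1, dnm1l and ppargc1a were lower.

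**Figure D1:**
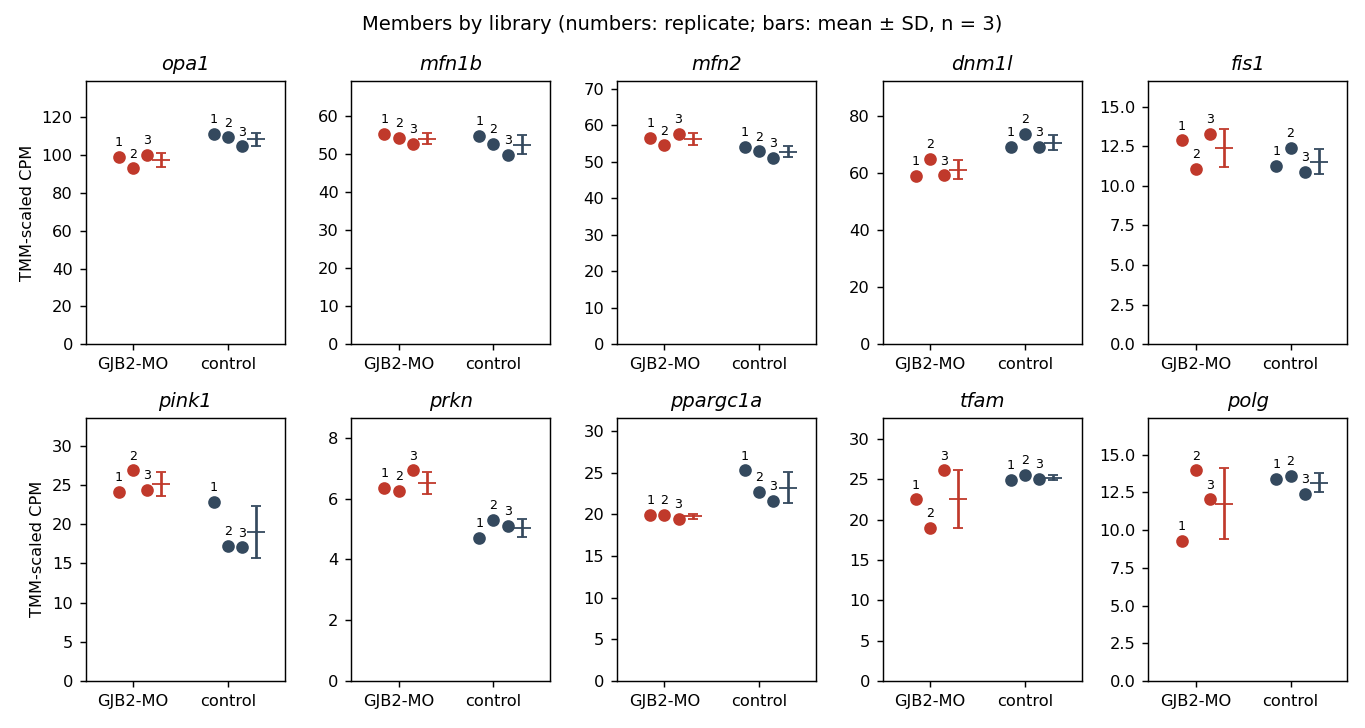
TMM-scaled CPM of the 10 members in each library, with GJB2-MO libraries left of control libraries in each panel; points are libraries numbered by replicate and bars are mean ± SD (n = 3 per group). The groups do not overlap in opa1, dnm1l, pink1, prkn, ppargc1a and, by a narrow gap, mfn2. They overlap in mfn1b, fis1, tfam and polg.

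**Figure D2:**
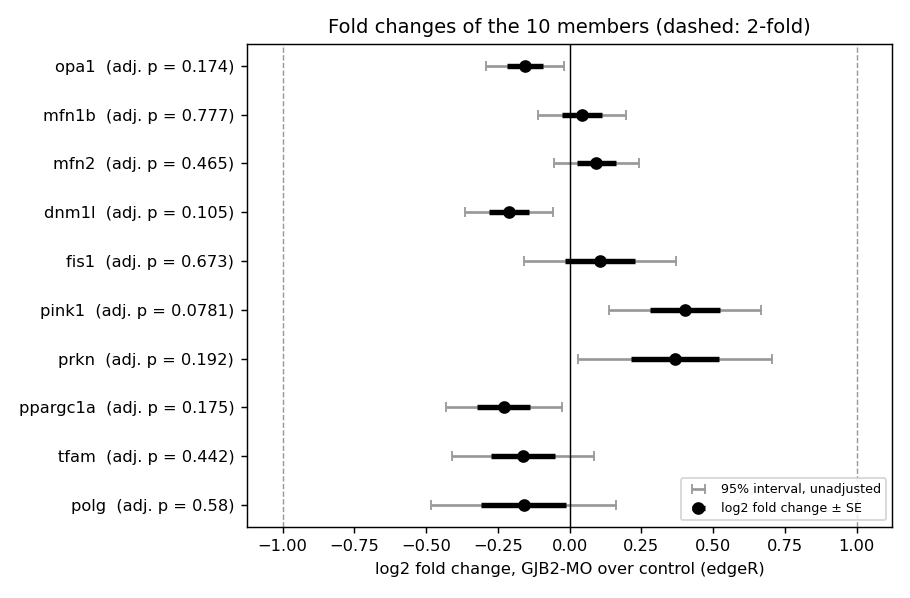
Log2 fold change of GJB2-MO over control for each member, with thick bars for the SE and thin bars for the unadjusted 95% interval from edgeR. All 10 intervals lie between the dashed lines at a 2-fold change, and no adjusted p is under 0.0781.

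Levels between genes were compared per length, in TPM (transcripts per 1e+06 transcripts) as deposited. The fission GTPase dnm1l was the most abundant member at 40.9 TPM averaged over the 6 libraries (range 37.2 to 46.5), followed by opa1 at 36.7 TPM (31.6 to 39.5), whose range overlapped with it. The next were mfn1b at 29.1 TPM and tfam at 28.4 TPM, which overlapped each other, with mfn1b lying wholly below opa1. Then came fis1 at 19.6, pink1 at 17.1 and mfn2 at 14.9 TPM, a run in which each neighbour overlapped the next. The 3 least abundant, polg at 5.13, ppargc1a at 4.57 and prkn at 4.47 TPM, overlapped one another and lay wholly below mfn2. Members therefore sat between the 37.7th and the 88.8th percentile of the tested genes. By group mean the order was nearly shared: prkn was 8th in GJB2-MO and 10th in control larvae, while dnm1l and opa1 were 1st and 2nd in both.

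Among the fusion genes, opa1 measured lower in each GJB2-MO library without passing the test, and the 2 mitofusin members gave the smallest fold changes of the 10. The gene opa1 (chromosome 6, 36720153 to 36795162, minus strand, GRCz11), which encodes the dynamin-like GTPase of the inner membrane, measured 99.1, 93.0 and 100.3 CPM in GJB2-MO libraries 1 to 3, against 111, 109 and 105 CPM in control libraries 1 to 3. Every GJB2-MO library was below every control library. Its log2 fold change was -0.15 ± 0.06 (SE, adjusted p = 0.174). For mfn1b (chromosome 11, 44452255 to 44485713, minus strand), an outer membrane mitofusin, the libraries gave 55.2, 54.0 and 52.5 CPM in GJB2-MO and 54.7, 52.6 and 49.8 CPM in control. GJB2-MO library 1 lay above all controls and control library 3 below all GJB2-MO libraries, but the groups overlapped, with a log2 fold change of 0.04 ± 0.07 (adjusted p = 0.777). The other mitofusin, mfn2 (chromosome 8, 47897734 to 47948904, plus strand), measured 56.5, 54.5 and 57.7 CPM in GJB2-MO and 54.1, 52.8 and 51.1 CPM in control, a log2 fold change of 0.09 ± 0.07 (adjusted p = 0.465). Its groups touched without overlapping in CPM and overlapped in TPM.

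Another mitofusin gene, mfn1a, rose. It is the paralog of mfn1b and no member. Of the fusion list, which has 9 symbols and includes opa1, mfn1b and mfn2, 8 genes were tested. An unadjusted p under 0.05 was reached by 2 of them, against 21.7% of all genes tested. Among the 8, mfn1a was the 1 gene called higher (12.5%, against 2.88% of all genes tested). The gene mfn1a (chromosome 2, 5321895 to 5356957, minus strand) measured 31.0, 34.3 and 31.4 CPM in GJB2-MO and 26.0, 23.2 and 23.3 CPM in control. No library of one group reached the other, and the log2 fold change was 0.42 ± 0.09 (adjusted p = 0.0183). The call was lost without control library 2 (0.39, adjusted p = 0.081) or control library 3 (0.39, adjusted p = 0.0769). Per length, mfn1a stood at 18.4 ± 0.386 TPM in GJB2-MO and 14.0 ± 0.645 TPM in control (SD, n = 3 each), and the summed level of the 3 mitofusin genes was 63.0 ± 1.65 TPM in GJB2-MO and 57.4 ± 1.40 TPM in control. The ratio of mfn1a to mfn1b in TPM was 0.591, 0.669 and 0.630 in GJB2-MO libraries and 0.501, 0.465 and 0.493 in control libraries, given as a description with no test. Whether reads were shared between the 2 paralogs was not tested.

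No fission gene was called, and 9 of the 14 tested lay above 0 and 5 below. Over all 22247 genes tested, 11432 lay above 0 and 10815 below. The GTPase gene dnm1l (chromosome 25, 20229573 to 20258638, minus strand) was lower in all GJB2-MO libraries, at 59.1, 65.0 and 59.2 CPM, against 69.2, 73.8 and 69.1 CPM in control. The groups did not overlap, GJB2-MO library 2 being nearest to the controls. Its log2 fold change was -0.21 ± 0.07, the smallest adjusted p among the members that were lower (0.105). The ratio of dnm1l to opa1 in TPM was 1.096 ± 0.106 in GJB2-MO and 1.137 ± 0.0477 in control (SD, n = 3 each), and its groups overlapped. For fis1 (chromosome 7, 20859437 to 20865005, minus strand), an outer membrane protein that takes part in recruiting DNM1L, the values were 12.9, 11.0 and 13.3 CPM in GJB2-MO and 11.3, 12.4 and 10.9 CPM in control. The groups overlapped and the log2 fold change was 0.11 ± 0.12 (adjusted p = 0.673). Of the 14 genes of the fission list none was called, with a median of 0.14. Its smallest p-values outside the members were those of mffb, an outer membrane adaptor for DNM1L, at 18.3 ± 1.18 CPM in GJB2-MO and 14.5 ± 0.340 CPM in control (log2 fold change 0.33 ± 0.10, adjusted p = 0.075), and of dnm2a, a dynamin (-0.29 ± 0.10, adjusted p = 0.107). At an unadjusted p under 0.05 there were 7 of the 14, 4 higher and 3 lower, against 21.7% of all genes tested.

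The pair of mitophagy members gave the largest fold changes of the 10, both upward and neither called. The kinase gene pink1 (chromosome 23, 37466855 to 37478739, plus strand) measured 24.1, 26.9 and 24.4 CPM in GJB2-MO and 22.9, 17.2 and 17.0 CPM in control. Control library 1 lay close below the GJB2-MO libraries and well above the other 2 controls. The log2 fold change was 0.40 ± 0.12, or 1.32-fold (adjusted p = 0.0781). This was the member closest to the threshold, and the side it fell on depended on the libraries and on the filter: without control library 1 it was 0.55 (adjusted p = 0.0205), and with no filter on low counts 0.40 (adjusted p = 0.0449). Without control library 2 or 3 it was 0.33 in each case (adjusted p = 0.243 and 0.227). The ubiquitin ligase gene prkn (chromosome 13, 3354317 to 3516485, minus strand) held the fewest reads, 115, 120 and 110 counts in GJB2-MO and 68, 88 and 86 counts in control. In CPM these were 6.35, 6.25 and 6.93 in GJB2-MO and 4.71, 5.30 and 5.11 in control. All GJB2-MO libraries were above all controls, and the log2 fold change was 0.37 ± 0.15 (adjusted p = 0.192), with the widest interval of the members, 0.03 to 0.71.

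Of the 31 genes tested in the mitophagy and outer membrane list, which includes pink1 and prkn, none was called in either direction, and the median was 0.06. An unadjusted p under 0.05 was reached by 5 of the 31, against 21.7% of all genes tested. The 2 smallest p-values outside the members belonged to bnip3, a mitophagy receptor, with 58.4 ± 1.80 CPM in GJB2-MO and 49.9 ± 4.74 CPM in control (log2 fold change 0.23 ± 0.08, adjusted p = 0.126), and to trak1b, an adaptor that links mitochondria to motor proteins (0.22 ± 0.09, adjusted p = 0.17). In bnip3 the groups did not overlap, with control library 1 the highest of its group, as it was in pink1. The largest log2 fold change in the list was that of the autophagy receptor gene nbr1a, chosen after its values were seen. Summed from 2 rows, nbr1a measured 24.9, 35.9 and 40.6 CPM in GJB2-MO and 9.69, 2.05 and 30.5 CPM in control. The groups overlapped, and the log2 fold change of 1.25 ± 0.95 did not pass (adjusted p = 0.536).

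The biogenesis coactivator gene ppargc1a measured lower in each GJB2-MO library without passing the test, and no regulator on its list was called. It lies on chromosome 7 (70575025 to 70669518, minus strand). Its libraries measured 19.9, 20.0 and 19.4 CPM in GJB2-MO and 25.3, 22.7 and 21.6 CPM in control. The GJB2-MO libraries were tightly grouped (coefficient of variation 1.52%) and all lay below the controls, which were more spread (8.09%). That contrast in spread comes from 3 libraries per group and was not tested. The log2 fold change was -0.23 ± 0.09 (adjusted p = 0.175), and -0.17 without control library 1. Muscle and heart, whose marker sums were also lower in the GJB2-MO libraries, are tissues rich in mitochondria; their part in this value was not tested. None of the 26 biogenesis regulators tested was called, including ppargc1a, and their median was -0.03. Of the 26, 2 had an unadjusted p under 0.05, against 21.7% of all genes tested. The related coactivator ppargc1b measured 35.3 ± 3.81 CPM in GJB2-MO and 32.6 ± 2.29 CPM in control (0.11 ± 0.10), nrf1, a transcription factor of the same programme, 41.8 ± 3.94 CPM in GJB2-MO and 44.1 ± 2.93 CPM in control (-0.08 ± 0.09), and esrra, a nuclear receptor partner, 36.4 ± 2.18 CPM in GJB2-MO and 39.7 ± 1.50 CPM in control (-0.12 ± 0.08). These 3 were named for their roles, outside the fixed rule. By that rule the smallest p-values were those of creb1b, a transcription factor, at -0.25 ± 0.08 (adjusted p = 0.0793), and pparaa, a nuclear receptor, at 0.28 ± 0.13 (adjusted p = 0.237).

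For the 2 genes of mitochondrial DNA upkeep the GJB2-MO libraries disagreed with each other more than the controls did. In CPM the coefficient of variation was also higher in GJB2-MO than in control for opa1, mfn2, dnm1l and fis1. It was lower in GJB2-MO for mfn1b, pink1, prkn and ppargc1a. These differences in spread rest on 3 libraries per group and were not tested. The packaging and transcription factor gene tfam (chromosome 12, 7254112 to 7263958, plus strand) measured 22.5, 19.0 and 26.1 CPM in GJB2-MO and 24.9, 25.6 and 25.1 CPM in control. The GJB2-MO libraries lay on both sides of the narrow control range. The coefficient of variation was 15.8% in GJB2-MO and 1.34% in control, and the log2 fold change was -0.16 ± 0.11 (adjusted p = 0.442), or -0.05 without GJB2-MO library 2 and -0.28 without GJB2-MO library 3. The DNA polymerase gene polg (chromosome 25, 8478850 to 8513291, minus strand) measured 9.28, 14.0 and 12.0 CPM in GJB2-MO and 13.4, 13.6 and 12.4 CPM in control. Its lowest library was GJB2-MO library 1 and its highest GJB2-MO library 2, which was the lowest of all for tfam. The log2 fold change of -0.16 ± 0.15 (adjusted p = 0.58) became -0.01 without GJB2-MO library 1 and -0.31 without GJB2-MO library 2. The deposited coordinates place 322 bases of polg on the other strand of fanci, a DNA repair gene. Raw counts of fanci, summed per group, were 667 in GJB2-MO and 707 in control (log2 fold change -0.22, edgeR adjusted p = 0.334). Without strand, reads in the overlap cannot be told apart. No other member overlapped a listed gene.

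The protein genes of the mitochondrial genome, which TFAM helps to transcribe, were set beside tfam. The 13 of them took 2.92%, 2.53% and 3.41% of all counts in GJB2-MO libraries 1 to 3 and 3.10%, 3.32% and 2.92% in control libraries 1 to 3. GJB2-MO library 2 was the lowest and GJB2-MO library 3 the highest of the 6 libraries in both this share and tfam, given as a description. Poly-A selection bears on how mitochondrial transcripts are captured, and its part was not tested.

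**Figure D3:**
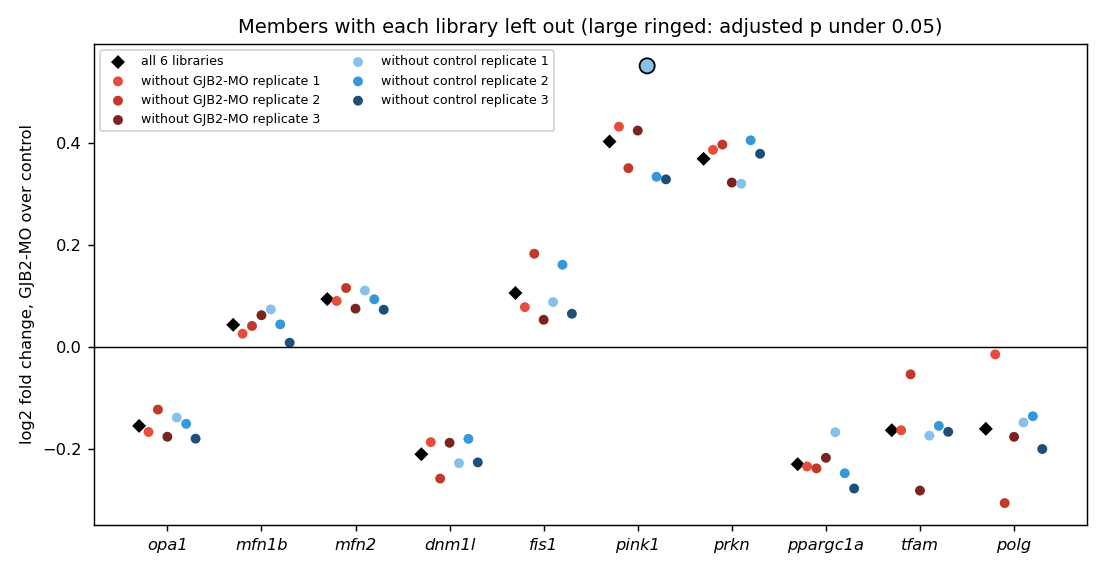
Log2 fold change of GJB2-MO over control for the 10 members with all 6 libraries (black diamonds) and with each library left out (red shades for GJB2-MO, blue shades for control). No sign turned; pink1 passed an adjusted p of 0.05 in 1 case, without control replicate 1, and the value of tfam ranged from -0.28 to -0.05 and that of polg from -0.31 to -0.01.

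Calls among related genes lay outside the members and were few. Over 7 lists drawn up for fusion, fission, OPA1 processing, cristae, mitophagy, biogenesis and mitochondrial DNA, 135 genes were tested including the 10 members, and 1 rose (0.741%) and 4 fell (2.96%), against 2.88% higher and 3.31% lower among all genes tested, so neither share exceeded the background. With 1 library left out, between 0 and 2 rose and between 1 and 4 fell. Calls over all genes in those runs also ran lower, from 272 to 477 higher and from 307 to 593 lower in GJB2-MO larvae. The median over the 135 was -0.02. An unadjusted p under 0.05 was reached by 29 of the 135, against 21.7% of all genes tested. Of the 29 tested genes of mitochondrial DNA maintenance, which include tfam and polg, 18 lay below 0 and 6 had an unadjusted p under 0.05. None of the 29 rose and 1 fell (3.45%). This was atad3 (chromosome 22, 2008 to 7139, minus strand), an inner membrane ATPase associated with nucleoids, with 22.7 ± 1.20 CPM in GJB2-MO and 30.6 ± 1.73 CPM in control (log2 fold change -0.43 ± 0.09, adjusted p = 0.0147), a call lost without control library 3 (adjusted p = 0.064). The partner subunit polg2 stood at -0.31 ± 0.20, the helicase gene twnk at 0.01 ± 0.12, the RNA polymerase gene polrmt at 0.07 ± 0.09 and the transcription factor gene tfb2m at -0.12 ± 0.07, none of which passed; these were named for their roles, outside the fixed rule.

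Of 15 genes of OPA1 processing and mitochondrial proteolysis 2 fell (13.3%, against 3.31% of all genes tested) and none rose. In the list 13 of the 15 lay below 0, against 10815 of all 22247 genes tested. At an unadjusted p under 0.05 there were 6 of the 15, against 21.7% of all genes tested. Of these 6, clpxa was higher in GJB2-MO (0.18 ± 0.07, adjusted p = 0.155) and the others were lower. The gene clpxa was named for its direction, outside the fixed rule. The median was -0.14, against 0.01 over all genes tested. The matrix protease gene lonp1 (chromosome 22, 3161164 to 3182763, minus strand), whose product also degrades TFAM in mammalian cells, measured 35.2, 39.3 and 38.3 CPM in GJB2-MO and 45.8, 58.5 and 57.4 CPM in control. All GJB2-MO libraries were below the controls, and the log2 fold change was -0.52 ± 0.10 (adjusted p = 0.0119). The prohibitin gene phb (chromosome 3, 15736884 to 15746995, plus strand), part of an inner membrane scaffold that holds OPA1-cleaving proteases, measured 189, 190 and 177 CPM in GJB2-MO and 219, 224 and 223 CPM in control (-0.26 ± 0.06, adjusted p = 0.0302). The lonp1 call was lost without GJB2-MO library 1 (adjusted p = 0.0505) or control library 2 (0.0574) or 3 (0.0556), and that of phb without any library except GJB2-MO library 2 (adjusted p between 0.0653 and 0.112). No gene of a protease that cuts OPA1 was called: yme1l1a was at -0.31 ± 0.09 (adjusted p = 0.0779), its paralog yme1l1b at -0.03 ± 0.08 and oma1 at -0.34 ± 0.17 (adjusted p = 0.262); these 3 were named for their role, outside the fixed rule.

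Cristae are the folds of the inner membrane, which OPA1 also helps to shape. Among 12 tested genes of cristae organisation 10 lay below 0, against 10815 of all 22247 genes tested, with a median of -0.10. None of the 12 rose and 1 fell (8.33%, against 3.31% of all genes tested). It was samm50 (chromosome 25, 19008497 to 19021823, plus strand), a subunit of the outer membrane machinery that inserts barrel proteins and is tied to the cristae junctions. Its libraries measured 36.1, 34.4 and 37.7 CPM in GJB2-MO and 50.2, 49.4 and 50.2 CPM in control. The gap between the groups was several times the spread within either, and the log2 fold change of -0.47 ± 0.07 (adjusted p = 0.00403) passed under each alternative run, with adjusted p between 2.67e-04 and 0.0192. The paralog samm50l, named outside the fixed rule, was at -0.18 ± 0.11 and did not pass. An unadjusted p under 0.05 was reached by 1 of the 12, against 21.7% of all genes tested.

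**Figure D4:**
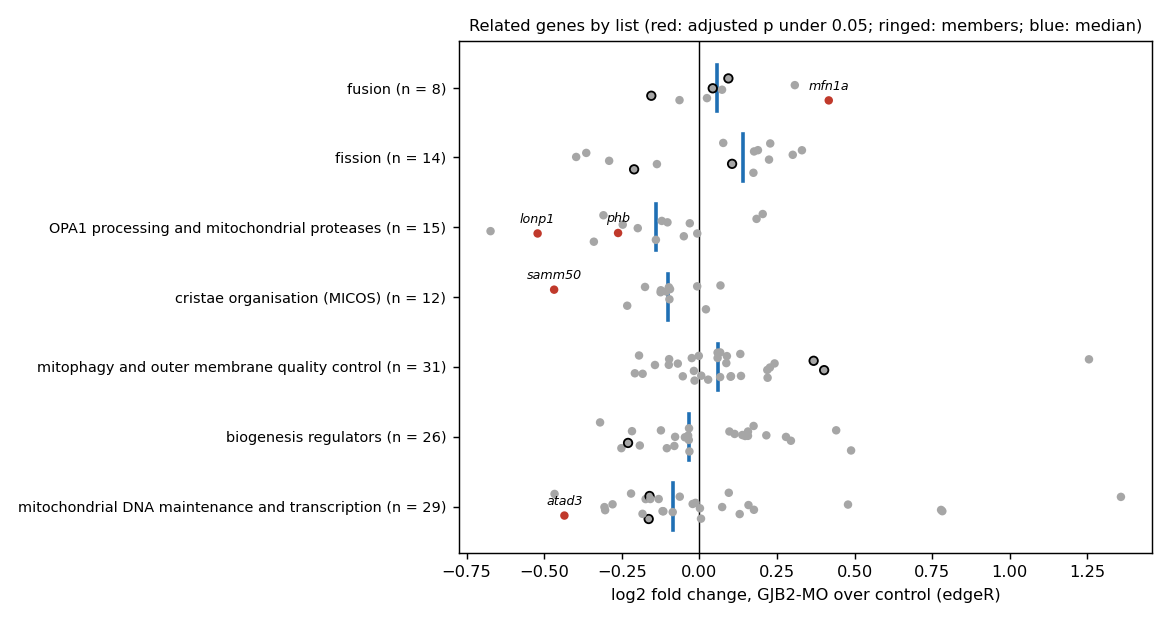
Log2 fold change of GJB2-MO over control for every tested gene of the 7 lists; red points are genes called at an adjusted p under 0.05, ringed points are members and blue lines are list medians. Called genes are mfn1a to the right of 0 and lonp1, phb, samm50 and atad3 to the left, and no ringed point is red.

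The genes whose pattern over the 6 libraries was most like that of pink1, the member with the smallest p, were mthfs, cel.1 and LOC100536500. Likeness was the root mean square difference of log2 CPM centred on each gene's mean, 0.0350, 0.0433 and 0.0440 for these genes, the smallest of 15609 candidates with a mean of at least 5 CPM. Their log2 fold changes were 0.46, 0.37 and 0.45 (edgeR adjusted p = 0.0696, 0.0951 and 0.022). Since the genes were chosen for likeness to pink1 over the same libraries, values near that of pink1 follow from the choice.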

How the data were processed

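Poly-A RNA of 6 libraries was sequenced. Per the submitters' processing notes, HISAT2, StringTie 1.3.1 and RSEM were used on GRCz11, with no role or order given. The authors deposited whole-number read counts per row, FPKM and TPM; the deposited TPM values sum to 1e+06 per library, and the deposited FPKM values imply 1 length per row in all libraries (27441 rows, tolerance 1e-04) and were not used further. Coordinates are 1-based, as deposited. The file's gene identifiers differ from those of RefSeq for many symbols and were not used. Use of strand in counting was not given.

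Counts of the 53709 rows were summed by symbol (16024 rows carry a suffix) to 37685 genes. edgeR 4.0.16 in R 4.3.3 tested 22247 genes kept by filterByExpr (min.count 10, min.total.count 15), with TMM scaling, a robust quasi-likelihood fit of 3 against 3 libraries with no covariate, and Benjamini-Hochberg adjustment over all genes; the SE is the log2 fold change divided by the root of the test statistic. Alternatives were DESeq2 1.42.0, DESeq2 size factors in edgeR, limma 3.58.1 on log2(TPM + 0.5), other filters, rows as deposited, a replicate block and leaving out each library. The procedure was checked on simulated counts. Since no label ties the libraries to separate clutches, p-values cover only their own spread, which may be technical; intervals rest on 3 libraries per group.

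The members and lists were chosen with earlier results of these data known. Named genes were all 10 members, up to 4 called genes of each list or, with none called, the 2 with the smallest p, and the 3 genes most like the member with the smallest p; exceptions are marked.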

Additional observations from a re-analysis of the deposited data

How the results depend on the processing

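No member changed sign under any of the 13 alternatives, and the log2 fold changes of the members stayed between -0.31 and 0.55. The number of members called higher was 1 (pink1) with no filter on low counts and between 0 and 1 when libraries were left out; the number called lower was 0 under each alternative. Calls over all genes ranged from 272 to 477 higher and from 307 to 593 lower with 1 library left out. With rows as deposited, 24652 rows were tested, with rows of the same symbol counted separately, and 930 rows were higher and 1119 lower. The numbers over the related lists ranged from 0 to 2 higher and from 1 to 4 lower with 1 library left out, and 2 were higher with no filter. In the lists 1 was higher and 6 were lower with rows as deposited. Correlations of the deviations across genes were -0.045, 0.051 and 0.041 for same-numbered libraries. Those between differently numbered libraries ran from -0.101 to 0.07. With 3 libraries per group these values cannot show whether the numbers pair the libraries, and no label states a pairing. With the replicate block 661 genes were higher and 701 lower, no member was called, and phb was no longer called (adjusted p = 0.0559). The cause of these shifts was not tested. Depth limits prkn most, with 68 to 120 counts per library.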
